A study of Homo sapiens with 18 samples.

Results

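The clustered histone genes are the histone genes packed together on chromosomes 6 and 1, with single outlying members elsewhere, and they supply the histone proteins that package newly copied DNA. Members were taken by name: protein-coding genes whose symbol begins with HIST1H to HIST4H, or carries the corresponding newer name. The rule gave 37 of the 57905 genes in the count files, namely 6 linker histone H1 genes, 9 H2A, 11 H2B, 7 H3 and 4 H4 genes. Another 5567 gene identifiers had no name in the annotation used and could not enter. The counts, shares and ranks below are therefore those of the named members, not of the whole family. The HIST1 cluster on chromosome 6 held 23 of them, chromosome 1 held 12 (HIST2 and HIST3), HIST4H4 lay on chromosome 12 and H2BFS on chromosome 21. RNA was measured in 18 libraries of BE(2)-m17, a human neuroblastoma cell line, and every library came from cells that carried the APP (amyloid precursor protein) vector pSBbi-Hyg-APP. Cells called Puro also carried the empty vector pSBbi-Pur. Cells called ABCC1(WT) carried pSBbi-Pur-ABCC1, which encodes codon-optimized wild-type ABCC1, an ATP-driven export pump. Both were pools of cells kept after hygromycin and puromycin selection, and RNA was taken on the fourth day after plating. The study made 3 experiments, RNA1, RNA2 and RNA3, each with 3 Puro and 3 ABCC1(WT) libraries from successive weekly platings. RNA1 was prepared with the TruSeq RNA Library Prep Kit v2, an mRNA kit that captures RNA by its poly(A) tail, and RNA2 and RNA3 with a SMARTer Stranded Total RNA-Seq kit, which does not. One label field of RNA1 names the SMARTer kit instead; the mRNA kit is the one its library characteristics and the study's methods give. Kit, sequencing instrument and experiment changed together, so they cannot be told apart.

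Histone genes of this kind are mostly expressed in S phase, when DNA is replicated. Their mRNAs are unusual among animal messages in having no poly(A) tail: the pre-mRNA is cut just after a short stem-loop, which is bound by the stem-loop binding protein SLBP. A downstream element is recognised by a small ribonucleoprotein that contains LSM10 and LSM11. Some members can also be cut farther downstream at an ordinary poly(A) signal, and these polyadenylated forms are known from differentiated and non-dividing cells. H2A and H2B pair with each other, H3 pairs with H4, and H1 binds the linker DNA between nucleosomes.

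The stem-loops are shown because they mark the RNA end that an mRNA kit does not capture. In the GENCODE 29 transcripts (GRCh38), 17 of the 37 members had a 16-base stem-loop with 6 paired stem bases and a 4-base loop, in only 3 versions. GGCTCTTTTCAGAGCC was found in 11 members, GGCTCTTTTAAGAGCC in HIST1H2BC, HIST1H2BD and HIST3H3, and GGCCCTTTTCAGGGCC in HIST1H4H, HIST1H4J and HIST4H4. Of the other protein-coding genes 102 (0.519%) held one, 13 of these with a HIST name of their own. A member without one may have a transcript model that stops before it. Below, capitals mark the stem-loop, with 5 transcript bases on each side.
HIST1H2AI (chr6:27808647-27808662, plus strand, 39 bases before the transcript end): ccaaaGGCTCTTTTCAGAGCCaccta
HIST1H2BL (chr6:27807484-27807499, minus strand, 40 bases before the end): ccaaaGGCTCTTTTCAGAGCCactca
HIST1H4J (chr6:27824459-27824474, plus strand, 6 bases before the end): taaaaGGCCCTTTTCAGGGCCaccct
HIST1H2BD, short transcript (chr6:26158587-26158602, plus strand, 39 bases before the end): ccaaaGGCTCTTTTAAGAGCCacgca
HIST1H2AC (chr6:26124669-26124684, plus strand, 1128 bases before the end): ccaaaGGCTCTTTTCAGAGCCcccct
HIST2H2BE (chr1:149886188-149886203, minus strand, 1729 bases before the end): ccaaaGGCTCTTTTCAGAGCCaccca
HIST3H2A (chr1:228457369-228457384, minus strand, 390 bases before the end): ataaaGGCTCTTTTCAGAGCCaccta

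The last 3 of these are followed by a long stretch of annotated transcript. For HIST1H2AC, HIST1H2BD and HIST2H2BE the annotated long transcript ends beside a poly(A) signal (AATAAA or ATTAAA in the last 50 bases), shown in capitals.
HIST1H2AC (chr6:26139088-26139093, plus strand): catgaggtAATAAAaggtaatgca
HIST1H2BD, long transcript (chr6:26171325-26171330, plus strand): ttataattAATAAAatctgcggag
HIST2H2BE (chr1:149884477-149884482, minus strand): ttgttattAATAAAgttaccaatt
Such a signal was found in 14 of 37 members, including 6 of the 8 on a list of members known for polyadenylated transcripts (HIST1H1C, HIST1H2AC, HIST1H2BC, HIST1H2BD, HIST1H2BK, HIST2H2BE, HIST1H4H and HIST3H2A), called the polyadenylated list from here on. The signal is only a sequence match, and in HIST1H4J it lies before the stem-loop.

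Upstream, the members share motifs that the choice by name did not use. In the 250 bases before the start, read on both strands in RefSeq promoters (GRCh38.p14), 32 of 37 members had an entry. CCAAT (reverse ATTGG) was found in 29 of them (90.6%) against 33.0% of all 27305 promoters, and in none of the 3 H4 genes. TATAAA (reverse TTTATA) was found in 22 (68.8%) against 11.1% of all promoters. AAACACA (reverse TGTGTTT), a motif known from H1 promoters, was found in 6 members, which were all 6 H1 genes, against 4.95% of all promoters. The 120 bases before the start of a pair of H1 genes and a pair of H2A genes show the arrangement, with those motifs in capitals.
HIST1H1B (chr6:27867589-27867708, minus strand): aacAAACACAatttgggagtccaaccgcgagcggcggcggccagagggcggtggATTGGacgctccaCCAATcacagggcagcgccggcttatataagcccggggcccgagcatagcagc
HIST1H1E (chr6:26156209-26156328, plus strand): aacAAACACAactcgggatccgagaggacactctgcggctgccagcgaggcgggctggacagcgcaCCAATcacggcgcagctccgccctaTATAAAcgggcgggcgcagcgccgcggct
HIST1H2AI (chr6:27808053-27808172, plus strand): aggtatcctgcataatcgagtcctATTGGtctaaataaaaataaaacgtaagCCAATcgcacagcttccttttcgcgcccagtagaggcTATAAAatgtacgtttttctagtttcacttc
HIST1H2AC (chr6:26124052-26124171, plus strand): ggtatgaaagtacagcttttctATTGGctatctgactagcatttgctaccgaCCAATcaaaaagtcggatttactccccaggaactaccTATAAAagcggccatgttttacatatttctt
The HIST1H2AI and HIST1H2AC starts each face an H2B gene, HIST1H2BL and HIST1H2BC. The members held 6 such head-to-head H2A and H2B pairs, 189 to 346 bases apart in GRCh37.

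The libraries held 27433393 to 57937653 read pairs assigned to genes in RNA1, 19577853 to 30996228 in RNA2 and 8866994 to 13332413 in RNA3. The vector-borne ABCC1 sequence was counted 51035 to 594404 times in ABCC1(WT) libraries and 0 to 15 times in Puro libraries, as labelled. Genes that this cell type does not use gave the level of stray reads. The mean over 354 olfactory receptor genes was 0.00456 ± 0.000636 (SD, n = 6) CPM per kilobase of exon (CPM, the read pairs of a gene scaled to the assigned pairs of its library) with the mRNA kit and 0.936 ± 0.549 (n = 12) with the total RNA kit. Within the total RNA kit it was 0.584 ± 0.0902 in RNA2 Puro, 0.305 ± 0.151 in RNA2 ABCC1(WT), 1.59 ± 0.0895 in RNA3 Puro and 1.26 ± 0.158 in RNA3 ABCC1(WT) (n = 3 each). All 9 neuroblastoma markers were tested (8 lower and 1 higher with the total RNA kit), among them MYCN at a mean of 2888 CPM in RNA1 Puro. Of the 5 markers of other cell types (PTPRC, CD68, CDH5, COL1A1 and ALB), 4 were tested between kits and all 4 were higher with the total RNA kit, CDH5 by 8.92 and PTPRC by 6.97 on the log2 scale. Their part in the results below was not tested.

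Histone transcripts were scarce in the mRNA kit libraries and abundant in the total RNA kit libraries. All members together took 0.0161% ± 0.0014 (SD, n = 6) of assigned pairs in RNA1 and 0.833% ± 0.178 (n = 12) in RNA2 and RNA3, a ratio of 51.6. These shares leave out 29 unnamed rows of histone-gene length in the HIST1 span. With the total RNA kit those rows took 0.360% of assigned pairs, against 0.671% for the 23 HIST1 members. The RNA1 libraries lay between 0.0145% and 0.0174%, and the lowest total RNA kit library held 0.592%, so the kits did not overlap. The ABCC1(WT) libraries held a larger share than the Puro libraries in RNA1 and a smaller one in RNA2 and RNA3, which is taken up by gene further on.

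**Figure D1:**
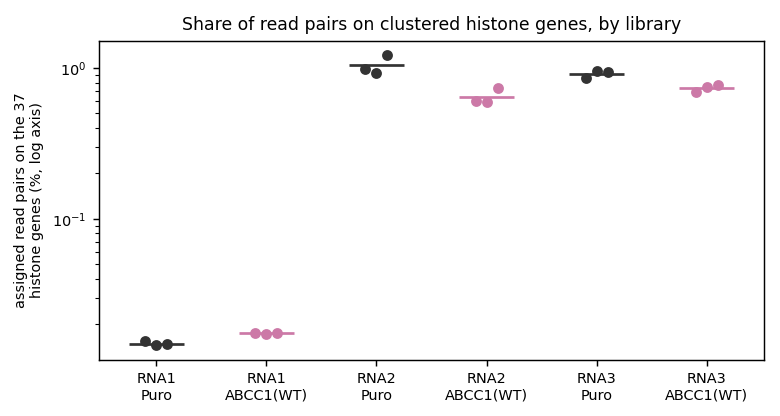
Percent of assigned read pairs on the 37 clustered histone genes in each library (log axis), by experiment and cell line, with Puro in black, ABCC1(WT) in pink and a line at each group mean. RNA1 (mRNA kit) libraries sit between 0.0145% and 0.0174%, and RNA2 and RNA3 (total RNA kit) libraries between 0.592% and 1.21%.

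Between kits, 35 of the 37 members had enough counts to be tested, and all 35 were higher with the total RNA kit at an adjusted p of at most 0.05 (edgeR quasi-likelihood test over 46225 features), and by at least 1 on the log2 scale. A gene could enter the test through its total RNA kit counts alone, so the count is a description: only 17 members had more than 3 pairs in every mRNA kit library, and 5 of those tested had none there. The background is high: of all features, 71.4% were called higher and 22.6% lower, or 68.4% and 15.0% with the fold limit. Most features tested are not protein-coding; of 18639 protein-coding genes 7836 were called higher and 9706 lower. The log2 fold change of the members ran from 2.23 to 12.34 with a median of 7.24, against a median of 3.96 over all features and −0.37 over protein-coding genes. With the 5 tested members that had no read pair in any mRNA kit library set to their lower bound, the median was 6.65. By class, with the same bounds, the medians were 8.88 for H1, 5.92 for H2A, 4.71 for H2B, 7.095 for H3 and 7.76 for H4. The bounds use CPM scaled within each experiment and the other values 1 scaling over all libraries, so medians with bounds mix scales. The H2B median is itself the bound of HIST1H2BA, and the H2A median takes in the bound of HIST2H2AA3. The fitted values for H2A, H2B and H3, which rest in part on genes at 0, were 7.70, 6.10 and 8.05.

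**Figure D2:**
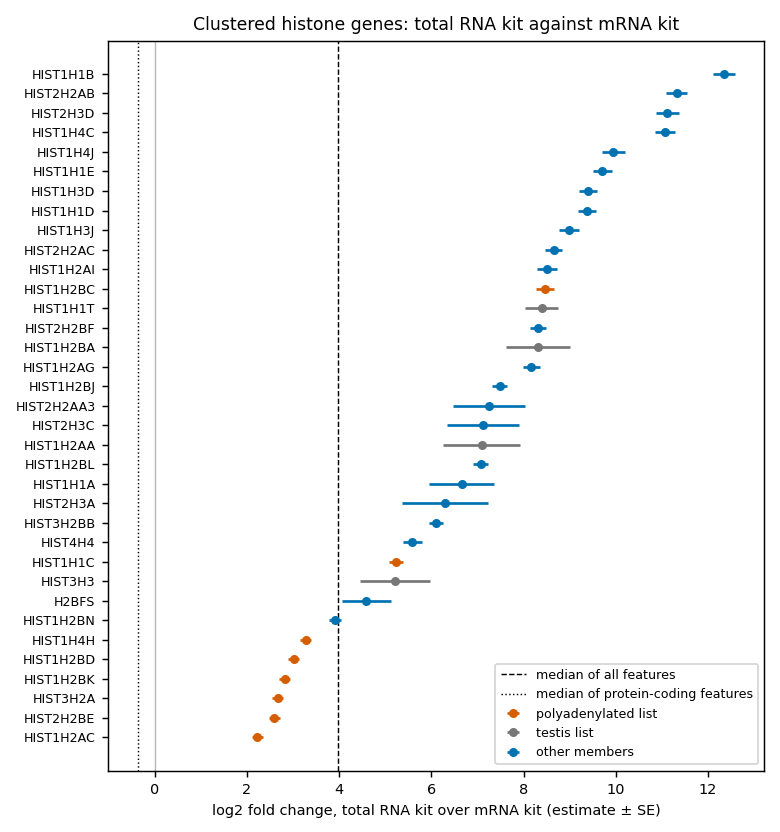
Log2 fold change of each tested member, total RNA kit over mRNA kit, with its standard error (edgeR). Orange marks the polyadenylated list, grey the testis list and blue the other members, the dashed line is the median of all features (3.96) and the dotted line that of protein-coding genes (−0.37), and the 6 smallest changes, from 2.23 to 3.27, all belong to the polyadenylated list.

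Among the H1 genes, which encode linker histones, HIST1H1B (GRCh37 chr6:27834570-27835359, minus strand, 1 exon) showed the largest change of any member by edgeR with TMM scaling. Over the alternatives run its change was 12.02 to 13.2, and that of HIST2H3D 10.38 to 14.14. The level of HIST1H1B was 0.062 to 0.184 CPM with a median of 0.121 in the mRNA kit libraries, and 713 to 1828 CPM with a median of 1120 in the total RNA kit libraries. The log2 fold change was 12.34 ± 0.23 (SE, adjusted p = 2.04e-43, edgeR). HIST1H1E went from 0.514 to 1.17 CPM (median 0.595) with the mRNA kit to 762 to 1485 CPM (median 942) with the total RNA kit, a change of 9.71 ± 0.21. HIST1H1D, with 0.031 to 0.212 CPM (median 0.118) against 93.8 to 186 CPM (median 145), changed by 9.37 ± 0.20. None of these 3 genes overlapped between kits in any library. HIST1H1C is the H1 gene on the polyadenylated list, and it stood out in the mRNA kit at 9.24 to 11.3 CPM (median 10.0), against 438 to 1008 CPM (median 642) with the total RNA kit. Its change of 5.23 ± 0.15 was the smallest of the class. HIST1H1A gave 1 read pair in all mRNA kit libraries and 228 in the total RNA kit libraries, a ratio of 257 per assigned pair (95% exact interval 45.6 to 10180, counting error only). Its level with the total RNA kit was only 1.68 times that of the olfactory receptor genes. HIST1H1T, the testis H1, gave 0 to 0.0345 CPM (median 0.0243) against 7.51 to 23.4 CPM (median 10.6), a change of 8.39 ± 0.37.

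The H2A genes spanned a wide range and held the smallest change of any member by edgeR with TMM scaling. HIST2H2AB (GRCh37 chr1:149859019-149859466, minus strand) went from 0.031 to 0.0707 CPM (median 0.0414) with the mRNA kit to 153 to 345 CPM (median 217) with the total RNA kit, a change of 11.32 ± 0.23 (adjusted p = 1.40e-42, edgeR). Next came HIST2H2AC, at 0.391 to 0.725 CPM (median 0.664) against 330 to 583 CPM (median 388), and HIST1H2AI, at 0.093 to 0.624 CPM (median 0.175) against 95.9 to 291 CPM (median 147). These changed by 8.65 ± 0.18 and 8.51 ± 0.22. The smallest change was that of HIST1H2AC (GRCh37 chr6:26124373-26139344, plus strand, 2 exons), at 2.23 ± 0.12 (adjusted p = 1.88e-23, edgeR). It was already at 33.5 to 47.0 CPM (median 39.5) with the mRNA kit, and reached 181 to 621 CPM (median 315) with the total RNA kit. CPM here is scaled within each experiment and the fold over all 18 libraries, so ratios of CPM differ from the folds of every member. Over the alternatives run, the change of HIST1H2AC was 1.496 to 3.22. HIST3H2A behaved like it, at 31.3 to 40.1 CPM (median 32.5) against 233 to 559 CPM (median 348), a change of 2.66 ± 0.12. Both are on the polyadenylated list, and the libraries of the kits did not overlap for either. HIST1H2AA, a testis gene, and HIST2H2AA3 gave no pair with the mRNA kit, and their levels were at least 11.2-fold and 12.8-fold higher with the total RNA kit, taking 3 counts per library as the floor. HIST1H2AD could not be assessed. HIST1H3D covers 385 of its 393 exon bases, pairs that touch more than one gene were not counted, and 1 pair was left in all 18 libraries.

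Among the H2B genes, HIST1H2BC had the largest change, from 0.477 to 0.914 CPM (median 0.827) with the mRNA kit to 313 to 612 CPM (median 446) with the total RNA kit. At 8.46 ± 0.19 (adjusted p = 2.71e-41, edgeR), it was the one gene of the polyadenylated list whose change exceeded the median of the members outside the lists (8.31). HIST2H2BF, at 0.341 to 0.621 CPM (median 0.414) against 136 to 412 CPM (median 234), changed by 8.31 ± 0.18. HIST1H2BA, the testis H2B, gave no pair with the mRNA kit and 467 pairs with the total RNA kit, at least 26.3-fold. The smallest changes belonged to HIST2H2BE, at 9.70 to 13.1 CPM (median 11.1) against 68.4 to 171 CPM (median 113), and HIST1H2BK, at 24.7 to 32.5 CPM (median 29) against 207 to 502 CPM (median 325). These changed by 2.59 ± 0.11 and 2.82 ± 0.12. HIST1H2BD, at 19.0 to 28.97 CPM (median 24.1) against 215 to 525 CPM (median 320), changed by 3.01 ± 0.12. All 3 are on the polyadenylated list, and HIST1H2BN, which is not, came next in the class with 3.92 ± 0.13.

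The H3 and H4 genes were almost invisible to the mRNA kit, except for HIST1H4H. HIST2H3D gave 0 to 0.069 CPM (median 0.0342) with the mRNA kit and 82.9 to 201 CPM (median 112) with the total RNA kit, a change of 11.11 ± 0.25 (adjusted p = 2.57e-40, edgeR). HIST1H3D gave 0.212 to 0.506 CPM (median 0.258) against 220 to 679 CPM (median 311), and HIST1H3J 0.0354 to 0.294 CPM (median 0.0627) against 58.6 to 154 CPM (median 78.3). These changed by 9.39 ± 0.19 and 8.99 ± 0.22. HIST1H4C changed by 11.06 ± 0.22 (adjusted p = 3.92e-43, edgeR), from 0.031 to 0.294 CPM (median 0.114) to 252 to 715 CPM (median 381). HIST1H4J, at 0.0177 to 0.069 CPM (median 0.0342) against 43.6 to 120 CPM (median 67.1), changed by 9.94 ± 0.25. HIST1H4H, on the polyadenylated list, was at 2.90 to 3.55 CPM (median 3.33) against 36.1 to 82.5 CPM (median 47.6), a change of 3.27 ± 0.12, and HIST4H4, at 0.0345 to 0.367 CPM (median 0.207) against 11 to 20.2 CPM (median 15.0), changed by 5.58 ± 0.20. HIST3H3, the testis H3, gave 2 pairs against 165, a ratio of 92.9 (95% exact interval 25.3 to 773).

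HIST2H3A and HIST2H3C have identical annotated transcripts, with 0 mismatches over 1656 bases. Pairs that matched both were not counted, and each gene gave no pair with the mRNA kit and a level below the olfactory receptor genes with the total RNA kit (0.330 and 0.584 times). HIST2H3PS2 was counted in no library, and 99.5% of its exon bases lie under another gene. For 11 members, over 50% of the 50-base windows of their transcripts also occur in a transcript of another gene, among them HIST1H3D (100%), HIST1H4J (81.2%), HIST2H3D (80.4%), HIST1H2BK (74.1%) and HIST1H2AI (62.3%). No window was shared for 11 others, which include all 6 H1 genes and HIST1H4C. Counts of the shared members leave out reads that could not be placed and are uncertain as levels.

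The polyadenylated list accounted for most of what the mRNA kit saw. Its 8 genes held 93.9% ± 0.484 (SD, n = 6) of the members' pairs with the mRNA kit and 31.6% ± 1.79 (n = 12) with the total RNA kit. Their median change between kits was 2.91, against 8.31 for the 23 tested members on neither this list nor the testis list (8.31 also with 3 of them at their lower bounds). For the 4 testis genes, 2 of which had no mRNA kit pair, the median was 4.96 with those at their bounds (fitted 7.70). Of the 7 members whose change was below the median of all features, 6 were on this list. The list came from general knowledge of these genes, with the results of these data already known, so the counts describe it and are no independent support. With genes at 0 at their bounds, members with AATAAA or ATTAAA within 50 bases of a transcript end had a median of 3.60. Those without had 8.39 (fitted 6.70 and 8.39). The 3.60 lies midway between the bounds of HIST2H3C (3.525) and HIST2H2AA3 (3.681). With the total RNA kit these genes were at only 0.584 and 1.96 times the olfactory receptor level. In the same way, the 10 members with over 1000 annotated exon bases had a median of 3.72 against 8.39 for the others (fitted 5.93 and 8.39). The 3.72 rests in part on the HIST2H3C bound, and medians with bounds mix scales, as above.

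The order of the members differed between kits. Per kilobase of exon, the mRNA kit ranked HIST3H2A first at 67.7 ± 6.61 CPM per kilobase (SD, n = 6), then HIST1H2BK at 35.0 ± 4.19, HIST1H2BD at 26.9 ± 4.42, HIST1H2AC at 23.9 ± 3.93 and HIST1H1C at 13.7 ± 1.08. HIST1H2BK and HIST1H2BD, and HIST1H2BD and HIST1H2AC, differ by less than the sum of their SDs, while HIST1H2BK stands above HIST1H2AC, and HIST3H2A above all 3, by more. Among the other classes, HIST1H4H led H4 at 3.13 ± 0.258 and HIST1H3D led H3 at 0.347 ± 0.123. With the total RNA kit, HIST1H1B was first at 1438 ± 452 CPM per kilobase (n = 12) and HIST1H1E the second at 1268 ± 286, followed by HIST1H4C at 957 ± 279, HIST2H2AC at 942 ± 192, HIST1H1C at 882 ± 232 and HIST3H2A at 726 ± 163. Each of these neighbours differed from the next by less than the sum of their SDs, and the order changed between groups: in RNA2 ABCC1(WT), HIST1H1E (1101) lay above HIST1H1B (930.5), and in RNA3 Puro HIST1H1C (1132) and HIST2H2AC (1068) lay above HIST1H4C (925). HIST1H2BC led the H2B genes at 543 ± 114, though not in RNA3 Puro (437.5 against 463 for HIST1H2BK), and HIST1H3D the H3 genes at 414 ± 150. HIST1H1B made up 0.0769% of member pairs with the mRNA kit and 13.4% with the total RNA kit, while HIST1H2AC went from 24.6% to 3.81%. H1 genes as a class went from 6.88% to 35.0% of member pairs, H3 from 0.281% to 6.79%, H4 from 2.256% to 6.402%, H2A from 47.1% to 26.4% and H2B from 43.5% to 25.5%. With the total RNA kit 22 members were over 100 times the olfactory receptor level, HIST1H1B at 1536 times, and 11 were under 10 times, among them HIST1H2AA, HIST1H2BA and HIST3H3 of the 4 testis genes.

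**Figure D3:**
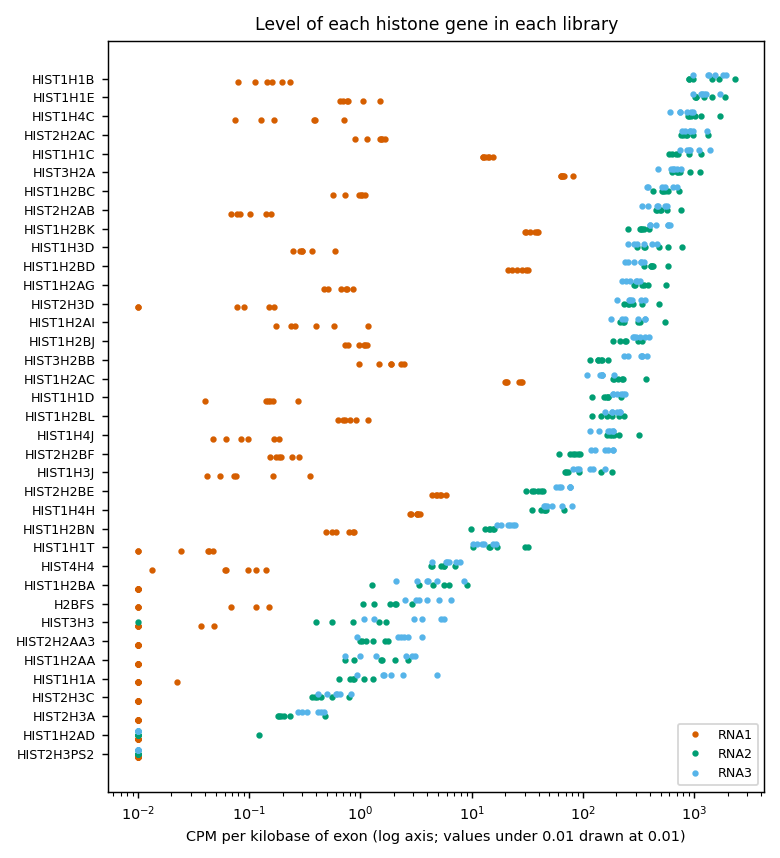
Level of each member in CPM per kilobase of exon (log axis, values under 0.01 drawn at 0.01), 1 point per library, with RNA1 in orange, RNA2 in green and RNA3 in blue. The total RNA kit points sit far above the mRNA kit points for HIST1H1B (means 1438 and 0.154) and closer together for HIST1H2AC (191.6 and 23.9).

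Most other genes of the histone pathway were lower with the total RNA kit, as were many protein-coding genes. Of 12 replication-independent histone genes, whose mRNAs are polyadenylated, 3 were called higher with the total RNA kit (H3F3A by 3.67, H3F3C by 2.20 and H2AFX by 0.31 on the log2 scale) and 9 lower, with a median of −1.49. H2AFX is known to make both kinds of mRNA, and H3F3A and H3F3C have close copies in the genome. Whether this bears on their changes was not tested. Of all protein-coding genes tested, 9706 of 18639 were called lower, and the counts of the lists are to be read against that. Of 24 genes for histone transcription and 3′ end processing, 0 were higher and 23 lower by edgeR (SLBP by −0.87, NPAT, the histone gene coactivator, by −1.44, LSM10 by −2.10 and LSM11 by −1.81), with a median of −1.39. All 16 histone chaperones were lower (median −1.05), as were 17 of 18 S-phase genes (median −1.37). Of 6 listed RNAs that lack a poly(A) tail, only 2 were found by name. RMRP was higher by 10.57 and TERC by 9.76, within the range of the histone members. The olfactory receptor genes were also higher, 335 of 336 tested with a median of 6.54, and so were 69 of 71 keratin-associated protein genes (median 6.15), on the scale of the stray reads given above. After the olfactory receptor level of each library was subtracted, 30 members kept a value above 0 in both kits, with log2 ratios of kit means of 3.00 to 13.23 and a median of 8.59, against 8.82 before subtraction (no test). These ratios use CPM scaled within each experiment, and the fitted median of the same 30 members was 7.82.

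The total RNA kit experiments were compared with each other, RNA3 against RNA2. The study describes its repeat experiments as made with cryopreserved cells and then with newly transfected cells. The labels do not assign these to RNA2 and RNA3. Cell stock, transfection and experiment cannot be told apart here. Of the 35 members tested, 23 were lower in RNA3 and 2 higher (edgeR, adjusted p at most 0.05), against 19.6% and 19.5% of all features. Of the protein-coding genes, 7850 of 18639 were lower and 4085 higher (median −0.16). Among the other lists, 13 of 18 S-phase genes, 17 of 24 transcription and processing factors, 10 of 16 chaperones and 6 of 9 neuroblastoma markers were lower, and 3 of the 4 markers of other cell types tested were higher. With the fold limit, 10 members were lower and 1 higher, against 6.6% and 11.4% of all features. That count of lower members was 2 with RLE or DESeq2, 0 with library totals, 1 with at least 10 counts in every library and 3 with protein-coding genes only. The member median was −0.63 and that of all features 0.42. HIST1H2AC fell by 1.46 ± 0.13 (adjusted p = 1.98e-14, edgeR), from 313 to 621 CPM in the 6 RNA2 libraries to 181 to 319 CPM in the 6 of RNA3, so that the experiments overlapped. The fold uses 1 scaling over all libraries and the CPM a scaling within each experiment, so they do not match: over the alternatives run, the change of HIST1H2AC was −1.59 to −0.66. HIST1H1T fell by 1.41 ± 0.20, HIST1H2BD by 1.34 ± 0.12, and HIST1H3D and HIST1H4C each by 1.24 ± 0.12. Their alternatives reached −0.61, −0.54, −0.43 and −0.43 at the weakest. The 2 higher members were HIST3H2BB (0.33 ± 0.11, adjusted p = 0.0195, edgeR) and HIST3H3 (1.37 ± 0.55, adjusted p = 0.0403, edgeR), and HIST3H3 lay at only 2.23 times the olfactory receptor level with this kit. These counts depend on scaling. With library totals, 9 members were lower and 12 higher and the member median was 0.18, while the median of all features was 1.22. DESeq2 called 15 lower and 4 higher. Neither higher call was left without RNA2 Puro replicate 2 or without RNA3 ABCC1(WT) replicate 3, and 1 was left without RNA2 ABCC1(WT) replicate 1 or 2, any RNA3 Puro replicate, or RNA3 ABCC1(WT) replicate 1. Stray reads were higher in RNA3 (above), and their part in these counts was not tested.

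Each experiment also compared ABCC1(WT) with Puro cells, to ask what ABCC1 expression does to the transcriptome. The members' share of assigned pairs was 0.0149% ± 0.000497 in Puro and 0.0174% ± 6.49e-05 in ABCC1(WT) for RNA1 (SD, n = 3 each), 1.04% ± 0.155 and 0.644% ± 0.0778 for RNA2, and 0.912% ± 0.0531 and 0.739% ± 0.0411 for RNA3. The lines did not overlap in any of the 3 experiments. The ABCC1(WT) share over the Puro share was 1.17, 0.621 and 0.811. Shares use assigned totals without TMM and weigh abundant genes most. With the total RNA kit HIST1H1B held 13.4% and HIST1H1E 11.9% of member pairs. Gene by gene with TMM, the median member change was 0.23 in RNA1, −0.35 in RNA2 and −0.04 in RNA3. In RNA3, 16 of 34 member estimates were above 0. Because RNA from whole cultures was measured, fewer cells in S phase and less histone RNA per cell cannot be told apart. Weekly platings are the only replication described for a given pool, so p-values measure the spread between platings, not between independent pools.

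In RNA1, 16 members were tested and 4 were higher in ABCC1(WT), HIST1H2AC, HIST1H2BD, HIST1H2BK and HIST1H2BN, which is 25% of those tested against 17.9% of all features. By edgeR 0 members were lower, against 19.7% of all features, and at an unadjusted p of at most 0.05 there were 7 higher and 1 lower, against 23% and 23.7% of all features. Leaving out Puro replicate 2, or ABCC1(WT) replicate 2 or 3, gave 1 lower call. HIST1H2AC was at 33.5, 34.5 and 33.9 CPM in Puro and 46.1, 47.0 and 44.5 CPM in ABCC1(WT). All ABCC1(WT) libraries lay above all Puro libraries. The log2 fold change was 0.43 ± 0.05 (SE, adjusted p = 5.90e-05, edgeR). HIST1H2BD was at 22.8, 19.0 and 20.8 CPM in Puro and 28.97, 25.32 and 27.9 CPM in ABCC1(WT), a change of 0.39 ± 0.08 (adjusted p = 0.00251, edgeR). HIST1H2BK was at 24.65, 27.65 and 25.03 CPM and at 32.0, 30.4 and 32.5 CPM, a change of 0.30 ± 0.06 (adjusted p = 0.00297, edgeR). Here too the groups did not overlap. In all, ABCC1(WT) lay fully above Puro in 7 of 16 members and in 24.7% of all features. HIST1H2BN, the least abundant of the 4, was at 2.09, 2.39 and 2.57 CPM in Puro and 3.36, 3.75 and 3.66 CPM in ABCC1(WT), and its change of 0.62 ± 0.12 was the largest (adjusted p = 0.00225, edgeR). HIST1H2AC, HIST1H2BD and HIST1H2BK are on the polyadenylated list, of which all 8 were tested and 3 called. HIST2H2BE, from the same list, was at 0.22 (adjusted p = 0.0513), and HIST1H2AG, just short of a lower call, at −0.47 (adjusted p = 0.0502, edgeR). With the spread estimated over all 18 libraries, 1 of the 4 calls was left. The same fit gave HIST1H2AC 0.53 at an adjusted p of 0.105.

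In RNA2, of 33 members tested, 4 were lower in ABCC1(WT) (12.1% against 0.458% of all features) and by edgeR 0 were higher (against 1.25% of all features). None of these 4 genes was among the 16 members tested in RNA1, and none of the 4 genes called in RNA1 was called in RNA2. At an unadjusted p of at most 0.05 there were 12 lower and 0 higher, against 10.7% and 10.6% of all features. HIST1H3J (GRCh37 chr6:27858093-27860884, minus strand), which shares 41.1% of its exon bases with another gene, was at 121.5, 78.0 and 153.5 CPM in Puro and 62.1, 58.6 and 58.9 CPM in ABCC1(WT), a change of −0.97 ± 0.20 (adjusted p = 0.0183, edgeR). HIST1H1B was at 1329, 1153 and 1828 CPM in Puro and 779.5, 713 and 712.8 CPM in ABCC1(WT), a change of −0.97 ± 0.21 (adjusted p = 0.0237, edgeR). HIST1H3D (GRCh37 chr6:26197068-26199521, minus strand) was at 502, 421 and 679 CPM and at 314, 266 and 308 CPM, a change of −0.85 ± 0.20 (adjusted p = 0.0313, edgeR). For each gene all ABCC1(WT) libraries lay below all Puro libraries, and Puro replicate 3 was the highest. In all, ABCC1(WT) lay fully below Puro in 12 of 33 members and in 16.4% of all features. HIST1H2AI (GRCh37 chr6:27775899-27776429, plus strand) was at 166.5, 173 and 290.9 CPM in Puro and 123, 114 and 122 CPM in ABCC1(WT), a change of −0.81 ± 0.20 (adjusted p = 0.0395, edgeR). Over the 17 fits run, HIST1H3J passed in 14, HIST1H1B in 13, and HIST1H3D and HIST1H2AI in 10 each. The member median was −0.35, against −0.19 for all features and 0.06 for protein-coding genes. Class medians were −0.71 for H3, −0.40 for H2A, −0.37 for H1, −0.35 for H4 and −0.23 for H2B. Without Puro replicate 3, or without ABCC1(WT) replicate 2, none of the 4 calls was left. There was 1 without ABCC1(WT) replicate 3 and 2 without ABCC1(WT) replicate 1. The stray reads were lower in ABCC1(WT) in this experiment (0.305 against 0.584 CPM per kilobase), and with their share in each library as a covariate 0 members were called by edgeR. That fit left 4 higher and 5 lower calls over all features, from 425 and 156. In that fit HIST1H1B was at −1.06 and HIST1H3J at −0.97 (adjusted p = 0.413 for both, edgeR). Stray-read levels were 0.490 to 0.670 in Puro and 0.139 to 0.434 in ABCC1(WT) libraries, without overlap. Line and stray reads therefore cannot be told apart here.

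In RNA3, 34 members were tested. Of these 2 were lower in ABCC1(WT) by edgeR (5.88% against 0.767% of all features) and 0 higher (against 2.03% of all features), and at an unadjusted p of at most 0.05 there were 8 lower and 2 higher, against 7.63% and 7.58% of all features. HIST1H2AI was at 165.6, 194 and 193 CPM in Puro and 95.9, 120.5 and 128 CPM in ABCC1(WT), a change of −0.68 ± 0.18 (adjusted p = 0.0195, edgeR). HIST1H3J was at 98.0, 104 and 133 CPM in Puro and 68.7, 78.5 and 74.2 CPM in ABCC1(WT), a change of −0.60 ± 0.17 (adjusted p = 0.0377, edgeR). Neither overlapped between lines, and both were also called lower in RNA2. In all, ABCC1(WT) lay fully below Puro in 7 of 34 members and in 10.9% of all features. HIST1H1B was at 1226, 1444 and 1535 CPM against 776, 1086 and 1049 CPM, lower in all ABCC1(WT) libraries than in all Puro libraries, but its −0.53 did not pass (adjusted p = 0.228, edgeR). HIST1H3D likewise gave 306, 400.1 and 361 CPM against 219.5, 251 and 266 CPM, a difference of −0.53 (adjusted p = 0.137). The class medians were −0.43 for H3, −0.25 for H2A, −0.23 for H4, −0.11 for H1 and 0.24 for H2B. The member median was −0.04 and that of all features −0.09. No call was left without Puro replicate 1 or 3 or without any one ABCC1(WT) replicate, and without Puro replicate 2 there were 4 lower and 4 higher. Here the stray reads were 1.26 in ABCC1(WT) and 1.59 in Puro, and with them as a covariate 13 members were lower, in a fit with 581 lower and 187 higher calls over all features (280 and 741 without it). With library totals as the scale 13 were lower and 1 higher, and with RLE size factors 0 were lower.

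**Figure D4:**
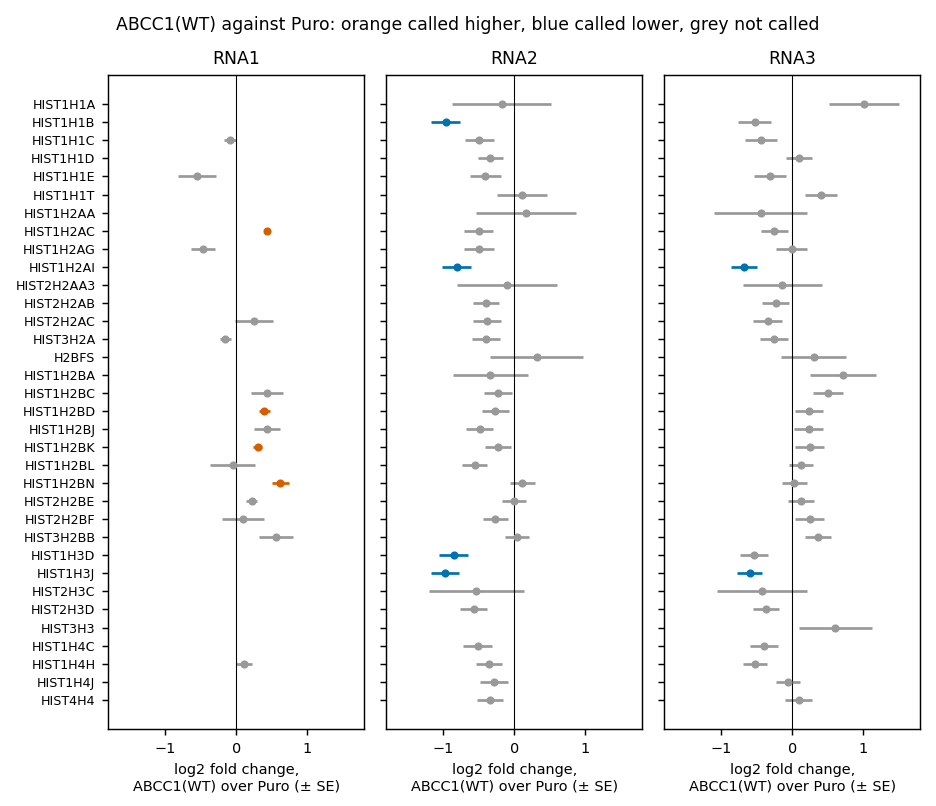
Log2 fold change of each tested member, ABCC1(WT) over Puro, with its standard error, in RNA1, RNA2 and RNA3 (edgeR). Orange marks members called higher (4 in RNA1), blue those called lower (4 in RNA2, 2 in RNA3) and grey those not called.

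**Figure D5:**
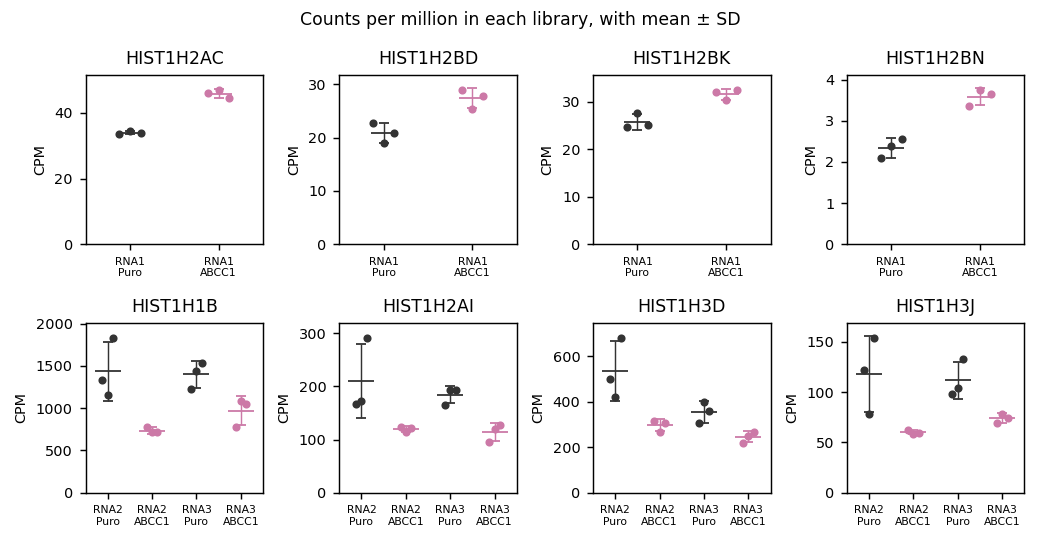
Level in CPM of called members in each library, with group mean and SD (n = 3), for Puro and ABCC1(WT). In the upper row (RNA1) HIST1H2AC, HIST1H2BD, HIST1H2BK and HIST1H2BN are higher in ABCC1(WT), and in the lower row (RNA2 and RNA3) HIST1H1B, HIST1H2AI, HIST1H3D and HIST1H3J are lower in all ABCC1(WT) libraries, although HIST1H1B and HIST1H3D did not pass in RNA3 (adjusted p = 0.228 and 0.137, edgeR).

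The difference between experiments was tested itself. In 1 fit over all 18 libraries, 1 of 35 members, HIST1H2AC, had an ABCC1(WT) effect that differed between experiments (2.86% of members against 1.19% of all features). Its effect was 1.02 lower in RNA2 and 0.70 lower in RNA3 than in RNA1 on the log2 scale (adjusted p = 0.0499, edgeR), and with the replicate block no member was called. Leaving out 1 library at a time, HIST1H2AC was called in 9 of 18 fits (adjusted p = 0.0121 to 0.187, edgeR). It was not called without any one RNA1 library, RNA2 Puro replicate 3, RNA2 ABCC1(WT) replicate 2 or RNA3 ABCC1(WT) replicate 2. Without RNA2 Puro replicate 3, its highest library, the RNA2 difference was −0.74. In RNA2 it was at 378, 381 and 621 CPM in Puro and 317, 313 and 345 CPM in ABCC1(WT), and in RNA3 at 247, 319 and 237 CPM and 181, 247 and 247 CPM. The next member was HIST1H2BJ (adjusted p = 0.0601, edgeR). In the fit over all libraries, the other opposite signs between RNA1 and the total RNA kit experiments were not shown to differ. HIST1H2BJ was called without RNA2 ABCC1(WT) replicate 1, RNA2 Puro replicate 2, RNA3 ABCC1(WT) replicate 1 or RNA3 Puro replicate 2. HIST1H2BC was called without RNA3 Puro replicate 2.

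For the other histone pathway genes the calls are to be read against the shares of all features called, which were far larger in RNA1 (17.9% higher and 19.7% lower) than in RNA2 (1.25% and 0.458%) or RNA3 (2.03% and 0.767%). Of 11 replication-independent histone genes tested there, 7 were lower in ABCC1(WT) and 0 higher by edgeR. They were led by H2AFJ (−0.58 ± 0.12), macroH2A gene H2AFY2 (−0.40 ± 0.05) and H2AFZ (−0.28 ± 0.04), and at the same threshold 0 were called in RNA2 or RNA3. Of 18 S-phase genes 11 were lower in RNA1, led by the ribonucleotide reductase subunits RRM2 (−0.42 ± 0.06) and RRM1 (−0.37 ± 0.05) and the replication helicase factor CDC45 (−0.30 ± 0.05), and 0 in RNA2 or RNA3 by edgeR. The S-phase medians were −0.20 in RNA1, 0.01 in RNA2 and −0.19 in RNA3, where RRM1 was at −0.44 ± 0.17 and CDC45 at −0.35 ± 0.16 without passing. The biological coefficient of variation, edgeR's measure of spread between replicates, was 5.67% in RNA1, 35.3% in RNA2 and 19.7% in RNA3. Of 24 transcription and processing factors, 2 were higher and 6 lower in RNA1, 2 higher and 1 lower in RNA2, and 1 higher in RNA3. ZCCHC6, a terminal uridylyltransferase that acts on histone mRNA during its decay, was higher in all 3 experiments, by 0.35 ± 0.05, 0.67 ± 0.16 and 0.72 ± 0.16. ZNF473, a component of the histone 3′ end processing machinery, was higher in RNA1 (0.33 ± 0.04) and RNA2 (0.69 ± 0.15). Cyclin E2 gene CCNE2 was lower in RNA1 (−0.60 ± 0.09) and RNA2 (−0.83 ± 0.20), while cyclin E1 gene CCNE1 (−0.52 ± 0.09) and CPSF2 (−0.45 ± 0.05), a subunit of the cleavage complex, were lower in RNA1. Of 16 chaperones, 8 were lower and 2 higher in RNA1, where the H3 and H4 chaperone ASF1B (−0.62 ± 0.09), NASP (−0.36 ± 0.09) and ANP32E (−0.30 ± 0.05) fell, and DAXX (0.16 ± 0.04) and HJURP (0.12 ± 0.04) rose. In RNA3, ANP32E (−0.65 ± 0.18) and ASF1B (−0.59 ± 0.18) were lower. With the spread shared over all libraries none of these RNA1 list calls was left among replication-independent histones, factors, chaperones or S-phase genes. Without ABCC1(WT) replicate 3, 4 factors were higher and 12 lower in RNA1, and without Puro replicate 2 or 3 the chaperones called lower there were 5. The higher calls of DAXX and HJURP were both lost without Puro replicate 3, and 1 was left without Puro replicate 1 or 2 or ABCC1(WT) replicate 1 or 2. In RNA2 none of the higher factor calls was left without Puro replicate 2 or 3 or ABCC1(WT) replicate 1 or 2, 1 was left without Puro replicate 1, and CCNE2 was not called without Puro replicate 2 or 3 or ABCC1(WT) replicate 2. In RNA3 the ZCCHC6 call was lost without Puro replicate 3 or ABCC1(WT) replicate 2 or 3, while 7 factors were higher without Puro replicate 2 and 5 without ABCC1(WT) replicate 1. Of the RNA3 chaperone calls none was left without Puro replicate 1 or 3 or ABCC1(WT) replicate 1 or 2, and 1 without Puro replicate 2 or ABCC1(WT) replicate 3.

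Markers of the cell type moved with ABCC1(WT) as well. Of 9 neuroblastoma markers, 2 were higher and 5 lower in RNA1, with the noradrenaline enzyme gene DBH at −0.83 ± 0.07 and MYCN at 0.45 ± 0.09, and 1 higher and 2 lower in RNA3. Of the markers of other cell types, COL1A1 was higher in RNA1 (0.83 ± 0.27, from a mean of 0.774 to 1.33 CPM) and PTPRC lower in RNA3 (−0.73 ± 0.20, from 16.4 to 9.89 CPM). All 4 of these markers that were tested had estimates below 0 in RNA2 (−1.04 to −0.83, median −0.86, none called) and in RNA3 (−0.73 to −0.36, median −0.42), as many histone members did. The part of these differences in the histone results was not tested.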

How the data were processed

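RNA-seq of 18 BE(2)-m17 libraries was analysed. Per the file headers and labels, the authors aligned reads with STAR 2.7.3a to GRCh37 with vector and spike-in sequences and deposited counts of read pairs per gene from featureCounts (Subread 2.0.0, Ensembl 74 exons, without strand). Pairs mapped to several places or touching several genes were left out, which lowers counts of near-identical or overlapping histone genes, and strand was ignored, so antisense reads cannot be told apart.

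Counts were tested with edgeR 4.0.16 (R 4.3.3) by the quasi-likelihood test, with TMM scaling, a filter at 10 counts (filterByExpr), robust dispersions and Benjamini-Hochberg adjustment over all features tested. A call needed an adjusted p of at most 0.05, and between kits or total RNA kit experiments also a log2 fold change of at least 1 where stated. The kit, experiment and difference tests used 1 fit of 18 libraries, and each ABCC1(WT) test the 6 libraries of its experiment. CPM used TMM-scaled totals within an experiment. Tests of simulated counts with 200 changed genes recovered 75.0% of them in RNA2 and 89.5 to 100% elsewhere. Recovery by size of change, and so at the size of the called ABCC1(WT) effects, was not tested. The biological coefficient of variation was 5.67% in RNA1, 35.3% in RNA2 and 19.7% in RNA3, so RNA1 detects smaller differences. Replicates differed beyond sampling noise (chi-square per degree of freedom 1.35 to 19.4). Intervals and the floor of 3 counts cover counting error only.

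The members and lists were chosen with earlier results of these data known. Genes were named as the 3 largest and 2 smallest kit changes per class, the called members of each ABCC1(WT) comparison (at most 3 per direction by size), list members, the highest level per class, up to 3 called genes per list and direction, and uncounted or copied members. HIST1H2AG, HIST1H2BJ, HIST1H2BN between kits, HIST3H2BB and the pathway genes between kits were named after their values were seen. GENCODE 29 gave names and gene types, and 5567 gene identifiers without a name there were not analysed here as members. A further 20 symbols that match the rule belong to genes that are not protein-coding. No genome of the files' build was used, so sequences come from GENCODE 29 and RefSeq, both GRCh38. Alternatives were RLE size factors, library totals, other filters, DESeq2 1.42.0, limma 3.58.1 (voom), a replicate block, protein-coding genes only, a shared spread, single experiments, a stray-read covariate and leaving out each library. Library totals, the covariate and, for the difference between experiments, leaving out each library were chosen after seeing the data.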

Additional observations from a re-analysis of the deposited data

Results flagged for a closer look

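HIST1H2AC was singled out because its ABCC1(WT) effect differed between experiments in the test of the difference itself: −1.02 for RNA2 minus RNA1 and −0.70 for RNA3 minus RNA1 (log2), with an adjusted p of 0.0499 (edgeR). With the replicate block 0 members were called. Leaving out 1 library at a time, HIST1H2AC was called in 9 of 18 fits, with adjusted p = 0.0121 to 0.187 (edgeR), and not without any one RNA1 library. The difference stayed negative in all 18, at −1.16 to −0.74 for RNA2 and −0.80 to −0.55 for RNA3.

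Signals also appeared in data that the comparisons above did not use. Histone pseudogene HIST2H2BC was higher in ABCC1(WT) in RNA1 by 0.61 ± 0.06 (adjusted p = 3.29e-05, edgeR), from a mean of 14.2 to 21.7 CPM, and its estimates in RNA2 and RNA3 were 0.58 and 0.59 (adjusted p = 0.0864 and 0.0579, edgeR). Pseudogene HIST3H2BA was higher there by 0.93 ± 0.20 (adjusted p = 0.00472, edgeR), from 0.671 to 1.29 CPM, with estimates of −0.39 in RNA2 and −0.13 in RNA3 that were not called. Between kits, the log2 change was 4.17 for HIST3H2BA and −1.06 for HIST2H2BC, the latter lower with the total RNA kit. Of 20 such rows, 16 were tested between kits, and 15 were higher and 1 lower, against 71.4% and 22.6% of all features. Among those called higher, HIST1H1PS2, HIST1H2APS6 and HIST1H2BPS1 had no mRNA kit pair and entered through the total RNA kit alone.

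In the stretch of chromosome 6 that the HIST1 members span (GRCh37 25726291 to 27860884), 29 rows without a symbol in the tables used have 1 exon and the length of a histone gene. They took 0.360% ± 0.0911 of assigned pairs with the total RNA kit and 0.000584% with the mRNA kit. Of these, 27 were tested and all 27 were higher with the total RNA kit, by 0.77 to 13.42 with a median of 8.86. Of all features 71.4% were called higher, with a median of 3.96 over all features tested. The values of the unnamed rows are fitted, and no lower bounds were worked out for them. The identity of these rows was not determined.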

How the results depend on the processing

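The higher level with the total RNA kit held under every alternative run, for all members tested in it; with at least 10 counts in every library only 16 members could be tested, and all 16 were higher (median 6.67, all features 0.10). The member median was 7.81 with library totals, 6.48 with limma-voom, and 7.94 with protein-coding genes only. Ratios of kit means scaled within each experiment, over 30 members, had a median of 8.59 after subtraction of stray reads and 8.82 before. Scaling moved the median of all features from 3.96 to 4.61 (library totals), so changes are best read against it. For RNA3 against RNA2, members called lower were 15 with RLE or DESeq2, 9 with library totals and 8 with at least 10 counts; with the fold limit they were 2 with RLE or DESeq2, 0 with library totals, 1 with at least 10 counts and 3 with protein-coding genes only. Members called higher were 4 with RLE, DESeq2 or protein-coding genes only, 12 with library totals and 5 with at least 10 counts; with the fold limit, 4 with library totals and 0 with at least 10 counts. Leaving out 1 library gave 0 to 2 higher, or 0 to 1 with the fold limit. The member median reversed to 0.18 with library totals. All features split into 9004 higher and 9078 lower with TMM, 19250 and 5047 with RLE, and 30064 and 2666 with library totals.

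For ABCC1(WT) in RNA1, members called higher were 1 with the shared spread, and members called lower 2 without a filter and 1 with at least 10 counts or protein-coding genes only (0 to 1 when 1 library was left out). In RNA2, members called lower were 7 with the shared spread or protein-coding genes only, 2 with RLE, 0 with the stray-read covariate, and 0 to 4 when 1 library was left out. In RNA3, members called lower were 0 with the shared spread or RLE, 13 with library totals or the covariate, 1 without a filter, 5 with protein-coding genes only and 0 to 4 when 1 library was left out; members called higher were 1 with library totals, DESeq2 or protein-coding genes only and 0 to 4 when 1 library was left out. Without RNA3 ABCC1(WT) replicate 1 the RNA3 member median reversed to 0.17. All features split into 425 higher and 156 lower in RNA2 and 741 and 280 in RNA3, against 32 and 117, and 822 and 927, with library totals. The difference between experiments was called for 2 members with RLE, 4 with DESeq2, and 0 to 3 when 1 library was left out, an alternative chosen after the data were seen. The cause of these changes was not tested.

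Replicate numbers did not pair the libraries: deviations of same-numbered libraries correlated at −0.10 to 0.0064 in RNA1, −0.14 to 0.0014 in RNA2 and −0.041 to 0.097 in RNA3. With the replicate block, members called higher in RNA3 against RNA2 were 0 (0 with the fold limit), members called lower in ABCC1(WT) were 1 in RNA1, 2 in RNA2 and 4 in RNA3, and 0 members differed between experiments. The shallowest library held 8866994 pairs (RNA3), and how far depth limits the calls was not tested.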
